A study of Mus musculus with 12 samples.

Results

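The genes described here were read deeply in every neural progenitor clone of the series and came from a single parental allele in exactly 1 of them. RNA was sequenced from neural progenitor cells (NPCs) derived from female (XX) and male (XY) embryonic stem (ES) cells, all F1 hybrids between the mouse strains 129Sv and Cast/EiJ, and from the 2 ES lines themselves. Sequence differences between the strains assign a read to the 129 or the Cast allele. Clones 129, C2, G4 and E1.2 are the XX NPC clones, here set beside the XX ES line F1-21.6, and mC3, mE6, mB4 and mG3 are the XY NPC clones, beside the XY ES line F1-23. No treatment or engineered allele is named in the labels. Each clone is the progeny of 1 cell and is used here with 1 library, so p-values between NPC clones measure the spread between clones. Those against the ES lines also rest on 1 library per ES line.

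A gene was taken when its row was autosomal, held at least 500 allele-informative counts in all 8 clones, had a 129 share of at least 85% or at most 15% in exactly 1 clone, and lay between 30% and 70% in the other 7. Rows whose names begin with Zfp, Slc, Pcdh or cuff_, and Ncan, Gja1 and Impact, were left out. This gave 122 rows out of 8252 autosomal rows of that depth and 14899 rows in all. By comparison, 7253 of the 8252 rows lay between 30% and 70% in all 8 clones. The genes were thus chosen by their allele shares and counts, which are given below as a description without a test. FPKM, the authors' value of fragments per gene length and library size, was not used in the choice, although it comes from the same libraries.

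Most autosomal genes are transcribed from both parental copies. Exceptions are imprinted genes, where the parent of origin sets which copy is used, X-linked genes of female cells, where a whole chromosome is silenced, and autosomal genes with random monoallelic expression, where single cells differ in the copy used and pass their state on to their progeny. A clone grown from 1 cell makes the last class visible, since in a mixed culture cells using either copy would average out. Neural progenitors are dividing cells that can give rise to neurons and glia.

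Clone 129 held 66 of the 122 genes and G4 held 24, while mB4 held 8, mE6 7, C2 6, E1.2 6, mG3 3 and mC3 2. The Cast allele was retained for 73 genes and the 129 allele for 49, and within clone 129 the numbers were 37 and 29. Among all 8252 well-read rows, clone 129 also had the most with a share past the same limits, 229 against 90 to 134 in the other clones, and its library was the smallest of the 8, with 66611144 counts summed over rows against 72230497 to 119266777. Of the 122 rows, 119 carried a protein-coding annotation, 7 joined several genes under 1 name, and Tdrkh and Oaz3, which overlap on opposite strands, had identical counts and are 1 measurement in 2 rows. The pairs Armc7 and Nt5c, Prkg1 and Cstf2t, Ppp1r3d and 9030418K01Rik, and Mtg1 and Sprn also overlap on opposite strands, and whether counting used strand is not given in the sources used here, so reads of these partners cannot be told apart.

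In clone mB4, 3 adjacent genes on chromosome 5 retained the 129 allele alone: Heatr2 (now Dnaaf5, an assembly factor of ciliary dyneins), Sun1 (an inner nuclear membrane protein that links the nucleus to the cytoskeleton) and Get4 (which helps to insert tail-anchored proteins into membranes). On chromosome 4 the same clone retained only the Cast allele of Sesn2, a stress-induced regulator of growth signalling. Their promoters are printed because these genes were read almost wholly from 1 allele in mB4 and from both in the other clones. The sequences are those of the reference genome and were not adjusted to the 129 or the Cast allele. Each window holds 250 bases before and 50 after the RefSeq start, from RefSeq on GRCm38.p6, and the positions given are those of its only exact match in mm9, the build of the files. The sequences read 5′ to 3′ along the gene's strand, with every CG dinucleotide, the site of DNA methylation, in capitals.
Heatr2 (mm9 chr5:139625939-139626238, plus strand): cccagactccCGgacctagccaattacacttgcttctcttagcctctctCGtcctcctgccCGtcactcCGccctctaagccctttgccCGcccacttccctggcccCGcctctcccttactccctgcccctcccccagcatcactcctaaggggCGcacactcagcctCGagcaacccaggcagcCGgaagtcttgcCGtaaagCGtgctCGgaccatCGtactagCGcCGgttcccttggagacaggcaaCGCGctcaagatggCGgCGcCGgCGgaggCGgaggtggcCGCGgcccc
Sun1 (mm9 chr5:139676341-139676640, plus strand): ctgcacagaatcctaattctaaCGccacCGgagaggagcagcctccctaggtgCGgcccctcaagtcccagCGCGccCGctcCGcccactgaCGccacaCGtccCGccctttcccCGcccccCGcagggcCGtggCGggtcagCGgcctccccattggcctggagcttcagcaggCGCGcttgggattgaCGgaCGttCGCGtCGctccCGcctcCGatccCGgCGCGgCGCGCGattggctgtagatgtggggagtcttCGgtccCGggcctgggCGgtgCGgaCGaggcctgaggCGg
Get4 (mm9 chr5:139728028-139728327, plus strand): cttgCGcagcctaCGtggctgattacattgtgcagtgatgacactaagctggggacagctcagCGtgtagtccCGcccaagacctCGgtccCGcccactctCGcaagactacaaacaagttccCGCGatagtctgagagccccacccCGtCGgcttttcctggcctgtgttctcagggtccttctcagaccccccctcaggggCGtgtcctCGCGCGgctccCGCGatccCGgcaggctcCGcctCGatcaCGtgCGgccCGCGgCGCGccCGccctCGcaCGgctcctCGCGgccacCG
Sesn2 (mm9 chr4:132066322-132066621, minus strand): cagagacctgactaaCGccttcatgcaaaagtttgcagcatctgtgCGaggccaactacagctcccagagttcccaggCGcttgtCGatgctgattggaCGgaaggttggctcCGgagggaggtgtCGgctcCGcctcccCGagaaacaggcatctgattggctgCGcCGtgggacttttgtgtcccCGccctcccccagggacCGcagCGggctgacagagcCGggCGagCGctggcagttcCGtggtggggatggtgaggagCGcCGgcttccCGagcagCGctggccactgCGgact

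These windows held 24, 36, 32 and 23 CG dinucleotides, in the order printed. A RefSeq window was matched for 99 of the 122 genes and for 6526 of the 8252 well-read rows. The median number of CG (the same letters on both strands, no overlap possible) was 20 for the matched genes and 23 for the well-read rows, and 100% and 99.7% of windows held at least 1. Only 5 of the matched genes (5.05%) had fewer than 5 CG, against 4.12% of well-read rows. Most of the matched genes thus had at least 5 CG, as most matched well-read rows did. The median of CG found over CG expected from the C and G content was 0.728 for the genes and 0.810 for well-read rows. By clone, the median number of CG was 22 for the genes of clone 129 and 16.5 for those of the other clones. These differences were not tested.

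**Figure D1:**
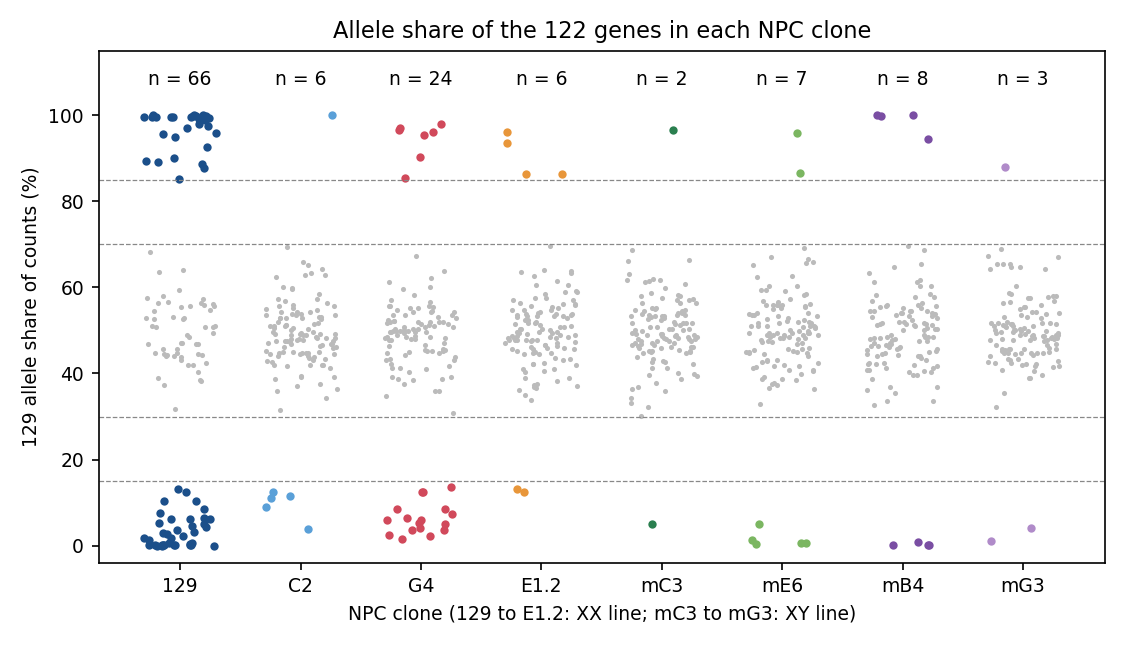
Share of informative counts from the 129 allele (%) for the 122 genes in each of the 8 NPC clones. Coloured points are the genes with a single allele in that clone (number above), grey points the genes that belong to another clone, and dashed lines the limits of the rule at 15%, 30%, 70% and 85%. In mB4, 7 of the 8 coloured points had at least 99% from 1 allele, and in G4 none of the 24 had.

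The retained allele gave a median of 96.5% of the counts in the single-allele clone (85.1% to 100%). It gave at least 99% for 42 genes, at least 95% for 76 and less than 90% for 22. Completeness differed between clones: the median share left to the other allele was 0.122% in mB4, 1.33% in mE6, 1.69% in clone 129, 4.10% in mG3, 4.21% in mC3, 5.23% in G4, 9.94% in C2 and 12.9% in E1.2. In the XX clones, the median share of the minor allele over X-linked rows was highest in E1.2 (11.6%) and G4 (6.63%), and stood at 0.143% in C2 and at 0% in clone 129. The state of the X chromosomes was not examined otherwise. Any part of these X-linked shares in the allele shares of the genes was not tested.

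At the complete end, Rfc3, a subunit of the clamp loader for DNA replication, had 100% of its counts from 129 in clone 129 (exact 95% interval 99.7% to 100%, counting error only) and 43.3% to 47.9% in the other 7 clones. Poli, a DNA polymerase that copies past lesions, had 0.0182% from 129 in the same clone against 37.6% to 48.3%. Rps20, a protein of the small ribosomal subunit, had 99.6% against 51.8% to 54.98%. At the limit of the rule, Smoc1 had 85.1% from 129 in clone 129, Megf6 85.4% in G4 and Tdrkh 86.4% in E1.2. Just outside it, with the other 7 clones within their limits, lay Adamts5 at 84.8% and Pura at 15.3% in G4 and Dixdc1 at 84.5% in clone 129. A further measure of how gradual this edge is comes from 256 rows whose major allele held 70% to 85% in exactly 1 clone.

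Total RNA of these genes was lower in the clone with a single allele. The FPKM of that clone was a median of 0.508 times the mean of the other 7 (quartiles 0.403 and 0.617), and it was the lowest of the 8 clones for 102 genes (83.6%), within the range of the others for 20 and the highest for none. Over all well-read autosomal rows and clones, the median ratio was 0.994 and a clone was the lowest in 12.5% of cases. The share of rows in which a clone was lowest differed between libraries, from 5.37% in mE6 and 5.47% in mB4, 5.7% in mC3, 5.99% in C2 and 11.2% in mG3 to 15.2% in clone 129, 16.5% in G4 and 34.3% in E1.2. Set against these, the genes of mE6 were lowest in 6 of 7 cases, those of clone 129 in 52 of 66, those of G4 in 23 of 24 and those of E1.2 in 5 of 6. In these bulk libraries, fewer cells with a transcript and less transcript per cell cannot be told apart.

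The ratio fell between 0.4 and 0.7 for 77 genes, below 0.4 for 30 and above 0.7 for 15. Its extremes were both in clone 129, 0.0841 for Ptp4a3 and 1.38 for Lmcd1. By retained allele the medians were close, 0.523 for the 129 allele and 0.504 for the Cast allele. The median was 0.503 over the genes of the XX clones and 0.601 over those of the XY clones. The difference between these medians was not tested, and NPC clones of the 2 lines also carry different library prefixes, so line and library set cannot be told apart.

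**Figure D2:**
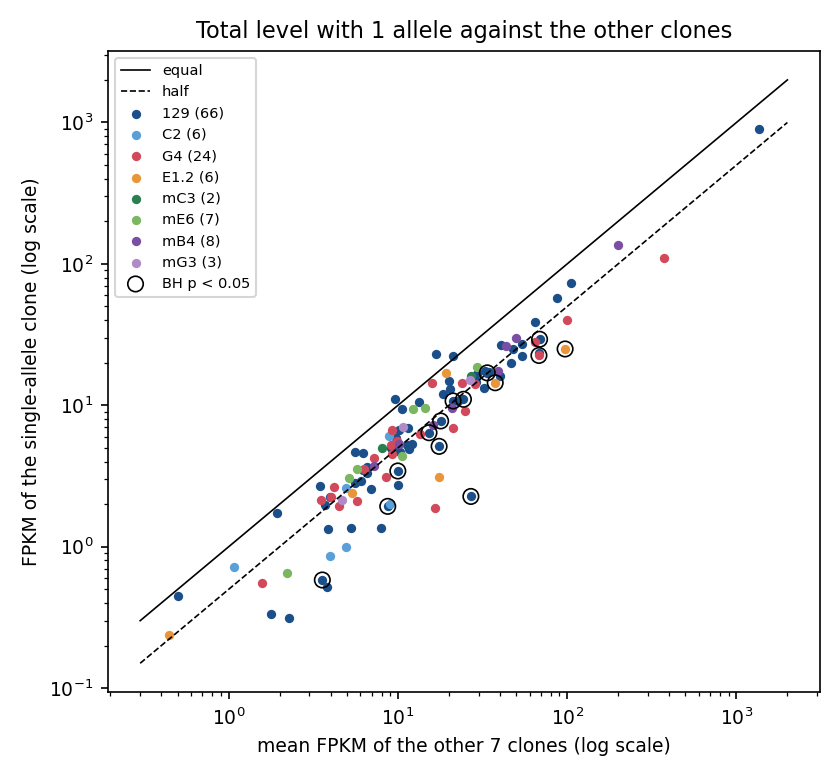
FPKM of each of the 122 genes in its single-allele clone (vertical, log scale) against the mean FPKM of the other 7 clones (horizontal, log scale), coloured by clone, with the number of genes in brackets. Rings mark the 14 genes that passed limma at an adjusted p under 0.05; the cloud follows the dashed half-level line, with a median ratio of 0.508.

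In the limma fit on log2(FPKM + 1) of the clone against the other 7, 120 of the 122 genes had a mean FPKM high enough to be tested (Sprn and Oaz3 had not). Of these, 116 had a negative and 4 a positive difference, with a median of -0.83 on the log2 scale against 0.01 over well-read rows. After Benjamini-Hochberg adjustment within each clone, 14 genes (11.7%) were lower and 0 were higher, where 0.149% of all clone and row combinations were called lower and 0.184% higher (0.0988% and 0.117% over well-read autosomal rows). At an unadjusted p under 0.05, 88 were lower and 0 higher, where 3.6% of well-read rows over the 8 clones were lower and 2.04% higher. The called genes lay in clone 129 (11 of 65 tested, where 0.701% of all rows and 0.296% of well-read rows were called lower), E1.2 (2 of 5, against 0.415% and 0.482%) and G4 (1 of 24, against 0.0346% and 0.0123%). In C2 and the 4 XY clones none of 26 tested genes was called, where 0.0173% of the 11562 rows tested were called lower in C2, 0.0259% in mG3 and none in mC3, mE6 and mB4. With the line as a covariate 21 of the 120 passed, all lower, 17 of them in clone 129, 3 in G4 and 1 in E1.2, where the same fit called 0.189% of all rows lower and 0.149% higher (0.114% and 0.0957% of well-read rows). Leaving out 1 clone at a time, with its genes, moved the share called lower from 3.64% (without clone 129) to 21.7% (without E1.2), with 4.20% without mC3, 4.39% without mE6, 4.46% without mB4 and 4.24% without mG3. Without the genes of clone 129 it was 5.45%.

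Ptp4a3, a protein tyrosine phosphatase, stood at 2.27 FPKM in clone 129, where 6.39% of its counts came from 129, and at 15.4, 27.8 and 32.5 FPKM (lowest, median and highest) in the other 7 clones. The log2 difference was -3.06 ± 0.35 (SE; limma adjusted p = 0.0063), and its retained Cast allele was also lower, 9.32 CPM (informative counts of that allele scaled to library size) against 42.4 to 72.2. Txnrd1, the cytosolic thioredoxin reductase of the antioxidant system, stood at 25.03 FPKM in E1.2 and at 61.3, 94.3 and 130.2 in the others (-1.87 ± 0.36, adjusted p = 0.045). For both genes the single-allele clone lay below every other clone. Xrcc5, which encodes the Ku80 subunit of the DNA-end binding complex of non-homologous end joining, stood at 5.13 FPKM in clone 129 and at 13.05, 18.9 and 19.4 in the others (-1.58 ± 0.21, limma adjusted p = 0.010). Unlike Ptp4a3, its retained allele, at 17.7 CPM, lay within the 17.3 to 22.5 of the other clones. Dhcr7, the last enzyme of cholesterol synthesis, stood at 22.5 FPKM in G4 and at 56.8, 68.4 and 80.5 in the others (-1.55 ± 0.17, limma adjusted p = 0.022).

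Ano3, in a row joined with Slc5a12, stood at 1.93 FPKM in clone 129 and at 6.53, 8.35 and 11.1 elsewhere (-1.70 ± 0.29, limma adjusted p = 0.042). The unnamed gene 9330182L06Rik stood at 0.582 against 2.72, 3.46 and 4.35 in that clone's comparison (-1.52 ± 0.22, limma adjusted p = 0.021). Irgq, a member of the immunity-related GTPase family, stood at 3.43 against 8.35, 10.0 and 11.8 (-1.30 ± 0.18, limma adjusted p = 0.014). In E1.2, Tdrkh, a Tudor-domain protein of the piRNA pathway, stood at 14.4 against 28.8, 40.9 and 43.2 (-1.30 ± 0.23, limma adjusted p = 0.039), and Oaz3 shares its counts. None of these 4 overlapped the other clones. Markers of feeder fibroblasts summed to 41.5 FPKM in E1.2 against 1.46 to 5.71 in the other NPC clones (7 of 8 markers in the table, 2 of them under 1 FPKM in every NPC clone), and astrocyte markers to 188 against 34.05 to 117 (4 of 5 in the table). Their part in the E1.2 results was not tested.

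The other 6 genes that passed, all in clone 129 and named after their values were seen, had log2 differences from -1.19 to -0.91. They were Prdx3, a mitochondrial peroxiredoxin, at 29.3 FPKM against 58.5 to 80.6, 1110057K04Rik at 6.40 against 14.3 to 16.7, Galnt11, an enzyme that starts O-glycosylation, at 7.76 against 15.1 to 20.3, Pxmp3 (Pex2), a peroxisome biogenesis factor, at 11.03 against 20.5 to 28.1, Cnot8, a deadenylase subunit, at 17.0 against 29.99 to 37.2, and Uhrf2, a ubiquitin ligase that binds modified chromatin, at 10.7 against 17.5 to 23.1. All 6 lay below every other clone. For 1110057K04Rik 0 informative counts came from the 129 allele, which allows up to 0.363% (exact 95% interval, counting error only), and it had the smallest adjusted p of the 122 genes, 0.0046 by limma.

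**Figure D3:**
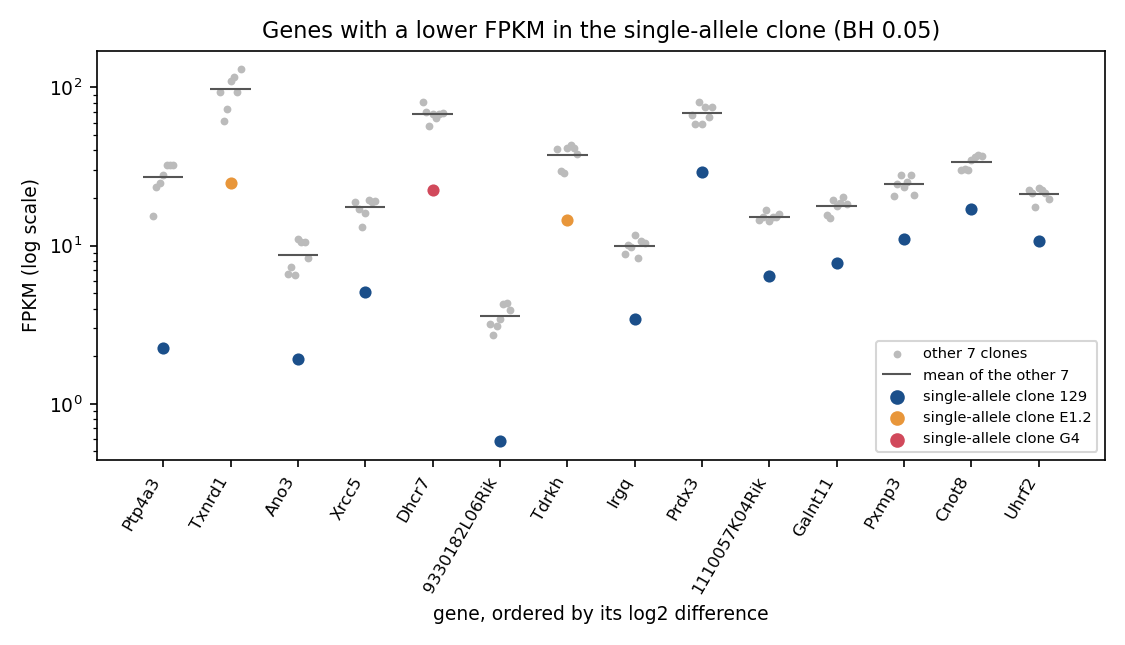
FPKM (log scale) of the 14 genes lower in their single-allele clone by limma, ordered by the log2 difference. Coloured points are the single-allele clone, grey points the other 7 clones and lines their mean; in all 14 the coloured point lies below every grey point, farthest for Ptp4a3 at 2.27 against 15.4 to 32.5.

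The 4 genes without a lower value were all in clone 129 and none passed the test. Lmcd1, a LIM-domain transcriptional cofactor, stood at 23.1 FPKM against 8.62, 12.4 and 28.0 in the others (log2 difference 0.56). Pif1, a DNA helicase, stood at 11.1 against 7.73, 9.80 and 11.6, and Tgfbr2, the type II receptor for TGF-beta, at 22.2 against 14.8, 18.6 and 31.8. For Als2cl the values were 4.65 against 1.27, 3.46 and 13.7. Each of these 4 lay inside the range of the other clones. The spread of Als2cl and Lmcd1 between clones with both alleles was thus more than 3-fold.

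Informative counts were part of the choice, so their comparison is given as a description that supports nothing. edgeR's quasi-likelihood test called 9 of 122 genes lower (7.38%) and 0 higher, where 0.122% of all rows over the 8 clones were called lower and 0.0598% higher, and 84 were lower at an unadjusted p under 0.05, 0 higher, against 3.18% and 2.29% of well-read rows. Over well-read rows the shares were 0.0318% and 0.0667%. Of these 9, 7 were in clone 129, where 0.876% of all rows were called lower, and 2, Tdrkh and Oaz3, in E1.2, where 0.0809% were, and 7 genes passed in both fits. DESeq2 called 63 lower (51.6%) and 0 higher, where it called 1.51% of all rows lower and 0.635% higher (1.12% and 0.639% of well-read rows). Without clone 129 and its genes the edgeR share was 3.57%, without mC3 2.50%, without mE6 2.61%, without mB4 1.75%, without mG3 2.52% and without E1.2 11.2%.

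Multiplying a gene's CPM by the allele share gives the level of the retained allele alone. It was near its level in the other clones, with a median log2 ratio of -0.06 (quartiles -0.42 and 0.20), where the same quantity over both alleles of all well-read rows had quartiles of -0.21 and 0.17. It lay within the range of the other 7 clones for 74 genes, below it for 31 (25.4%) and above it for 17 (13.9%), against 12.5% of alleles below and 12.5% above over well-read rows. For the 42 genes with at least 99% from 1 allele the median was 0.06, and for the other 80 it was -0.11. By clone the medians ran from -0.68 in both C2 and E1.2, through -0.08 in clone 129 and in G4, to 0.09 in mG3, 0.10 in mE6, 0.15 in mB4 and 0.19 in mC3. Each allele level shares its library and its count with the share that chose the gene, so no test was made.

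Among the genes whose retained allele was above all other clones, Lmcd1 stood at 21.8 CPM in clone 129 against 6.22 to 15.8 for the same allele elsewhere. Pif1 stood at 82.9 against 32.5 to 44.1, and Haus4, a subunit of the augmin complex of the mitotic spindle, at 15.1 against 4.39 to 9.46. Tgfbr2 stood at 66.7 CPM against 24.9 to 52.7. In all 4 the retained allele was the highest of the 8 clones while total FPKM was inside their range. On the low side, in C2 the Cast allele of Gpr123, an adhesion G-protein-coupled receptor, stood at 8.85 CPM against 11.7 to 45.7, and that of Irx2, a homeodomain factor, at 5.55 against 9.29 to 20.6. FPKM of both was also the lowest in C2, 0.862 against 1.38 to 6.14 for Gpr123 and 1.998 for Irx2 against 6.08 to 12.7.

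**Figure D4:**
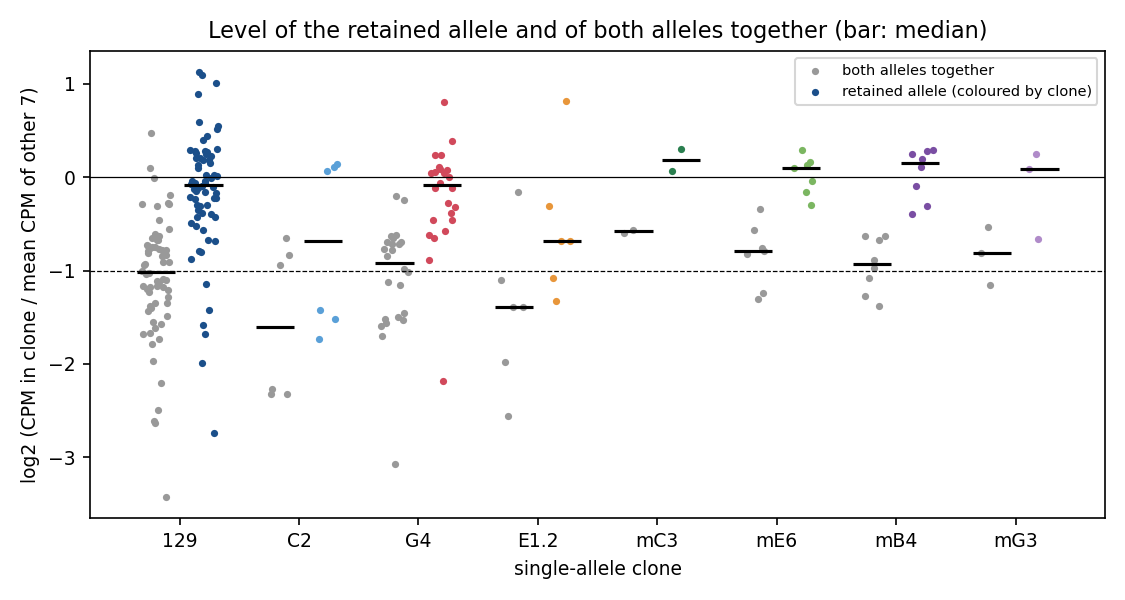
Log2 ratio of the level in the single-allele clone to the mean of the other 7, in CPM, for both alleles together (grey) and for the retained allele alone (coloured), by clone, with bars at the medians. The retained-allele medians lie between -0.68 (C2, E1.2) and 0.19 (mC3); that the retained allele lies above both together is fixed by the choice of genes.

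The largest run of neighbours lay at the end of chromosome 7 in G4. From Nap1l4, a histone chaperone that begins at mm9 position 150699459, to Tpcn2, an endolysosomal ion channel that ends at 152469864, 54689 bases before the end of the chromosome, 11 genes retained the Cast allele. The stretch holds 19 rows, and the 13 with at least 50 counts in G4 all had a 129 share between 1.69% and 8.51%, although 1 of them, cuff_15983, was also at 2.33% to 11.9% in the other clones. In the other 7 clones the 11 genes had 129 shares of 36.5% to 64.1%. Before Nap1l4, 18 of the 22 rows with at least 500 counts within 3 Mb lay between 30% and 70% in G4, among them Tssc4 at 45.0% and Cd81 at 49.9%. The other 4 were Slc25a22 at 11.4% (48.2% to 63.3% in the other clones), Cd151 at 73.6% (69.6% to 77.1%) and the overlapping imprinted pair Kcnq1 and Kcnq1ot1. That pair, counted identically, was at 4.96% in G4 and at 0.0400% to 68.6% in the other clones, so its low share was not particular to G4. The run was picked out after its values were seen and has no test of its own.

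Total levels in that run were low in G4 as well: 10 of the 11 genes lay below all other clones, with a median log2 FPKM difference of -1.12, against -0.01 over the rows before Nap1l4. Ccnd1, which encodes cyclin D1, the partner of CDK4 and CDK6 in G1, had the highest level of the run, 110.9 FPKM in G4 and 306.9, 386.9 and 435.6 in the others (log2 difference -1.74, limma adjusted p = 0.061). Nap1l4 stood at 40.0 against 79.9, 108 and 116, and Cttn, the actin-binding cortactin, at 28.0 against 52.2, 66.2 and 74.5. Fadd, the adaptor of death receptors, stood at 2.10 against 5.06, 5.64 and 6.29, and Ppfia1, a liprin scaffold, at 6.26 against 11.7, 13.5 and 14.6. These 4 genes and Ccnd1 lay below every other clone without passing the test, which Dhcr7 alone of the 11 did. With the line as a covariate, Nap1l4, Dhcr7 and Ccnd1 passed.

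Osbpl5, a lipid transfer protein, was the exception, at 14.4 FPKM in G4 within 10.9, 14.5 and 20.8 in the others, and its Cast allele there was above all other clones, 53.9 CPM against 21.9 to 40.3. The remaining genes of the run were Cars (cysteinyl-tRNA synthetase) at 6.86 FPKM against 13.1 to 28.6, Mrgpre at 0.556 against 1.15 to 2.09, Nadsyn1 (NAD synthetase) at 2.23 against 3.33 to 5.73 and Tpcn2 at 2.13 against 2.76 to 4.69. Outside this stretch, G4 had 13 further genes with a median log2 FPKM difference of -0.72, all 13 below every other clone.

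**Figure D5:**
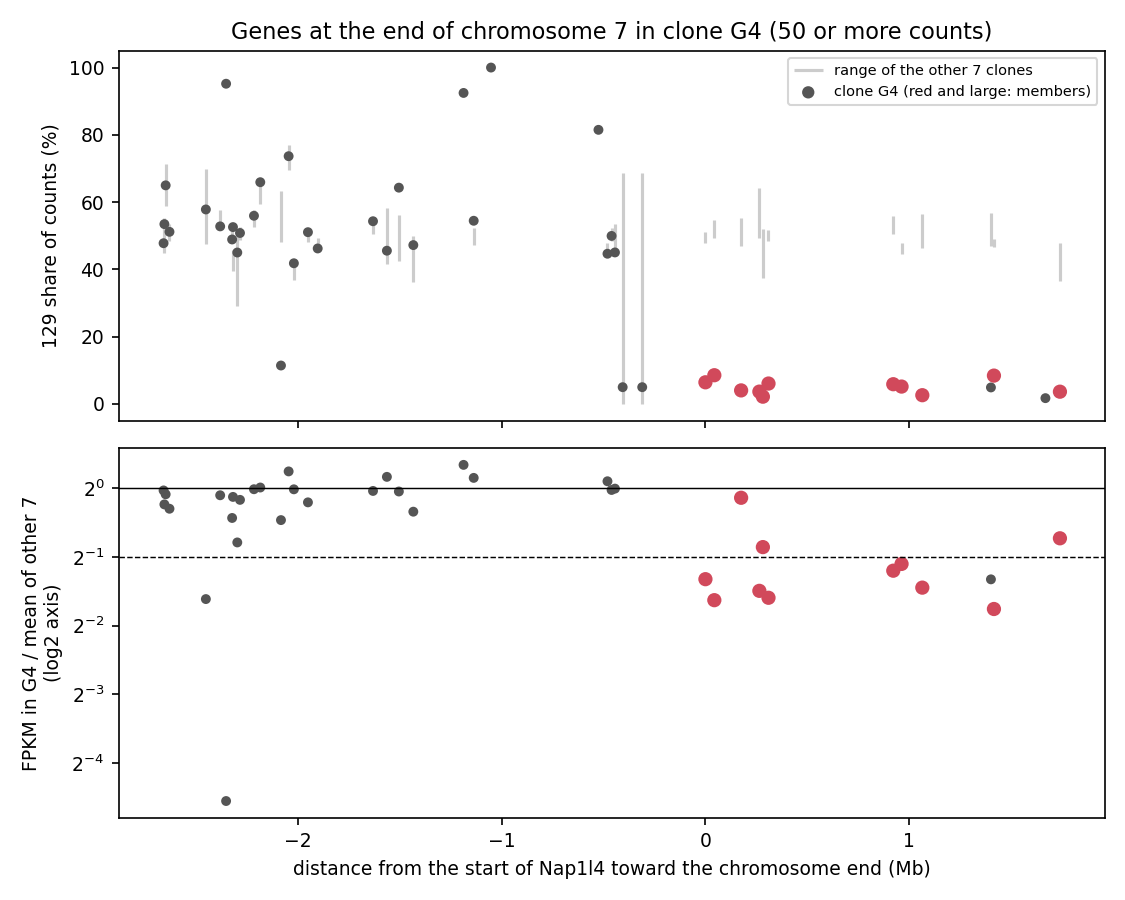
Genes with at least 50 counts in G4 by distance (Mb) from the start of Nap1l4 toward the chromosome end. Above, the 129 share (%) in G4 (points; red for the 11 genes described) with the range of the other 7 clones (grey bars, where each had at least 50 counts), and below the ratio of FPKM in G4 to the mean of the others (log2 axis, rows over 0.5 mean FPKM); past Nap1l4 every point of the upper panel is at or under 8.51%.

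Within 1 Mb, 44 of the 122 genes (36.1%) had at least 1 neighbour with 100 or more counts read from the same single allele in that clone. When overlapping rows were not counted, 35 (28.7%) did. Without the chromosome 7 run the numbers were 33 of 111 with overlapping rows counted and 24 of 111 (21.6%) without. With overlapping rows counted, a given well-read row had a neighbour with a given single allele in 14.6% of cases over the 8 clones and both alleles. That share was 21.6% in clone 129, where 18 of the 66 genes had such a neighbour. In G4 it was 15.2%, where 2 of the 13 genes outside the run had one. No such share was computed without overlapping rows, and the difference was not tested. The mB4 genes on chromosome 5 printed above had FPKM of 3.75 against 5.65, 6.82 and 9.35 (Heatr2), 7.22 against 13.96, 16.2 and 18.2 (Sun1) and 9.59 against 15.7, 20.2 and 25.4 (Get4). All 3 were lowest in mB4, and none passed the test. On chromosome 4, Sesn2 stood at 29.9 FPKM in mB4 against 29.4, 46.5 and 71.4, within the others, and Atpif1, the inhibitor of the mitochondrial ATP synthase, at 135.6 against 142, 172 and 266, below them. Their 129 shares were 0.0820% and 0.112%, and Dnajc8 next to them shared the allele.

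Neighbours could also differ in the allele used. On chromosome 19 in clone 129, Uhrf2 was read from 129 (98.0%), while Cstf2t, an RNA 3′-end processing factor, and Prkg1, the cGMP-dependent kinase it lies in, were read from Cast (129 shares of 8.59% and 5.26%). Cstf2t stood at 16.6 FPKM against 27.1, 28.5 and 35.7, below all others, and Prkg1 at 2.67 against 0.232, 3.02 and 10.5, within them. Of the overlapping pairs of clone 129, Nt5c, a nucleotidase, stood at 19.8 against 30.4, 49.8 and 56.0 and Armc7 at 1.73 against 1.64, 1.93 and 2.09. Ppp1r3d, a glycogen-targeting subunit of protein phosphatase 1, stood at 0.332 against 1.09, 1.36 and 2.99 and 9030418K01Rik at 2.58 against 4.75, 7.24 and 8.76. Mtg1, a mitochondrial ribosome assembly GTPase, stood at 5.35 against 7.11, 10.4 and 11.8, and Sprn at 0.447 against 0.286, 0.463 and 0.775. In each pair except Ppp1r3d and 9030418K01Rik, 1 partner was below all other clones and the other was not.

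The genes did not belong to 1 kind. For description, 52 of them with a well-known role were grouped, after the genes were known. Of all 122 genes 83.6% were lowest in their single-allele clone, so the counts by group are to be read against that share. DNA repair and replication had 9: Xrcc5, Rad50, Polm, Poli, Rfc3, Pif1, Pole4, Dtymk and Obfc1, spread over 4 clones, with FPKM ratios from 0.293 to 1.15, and 8 of them were lowest in the single-allele clone. Rad50, part of the complex that senses DNA breaks, stood at 6.73 FPKM in clone 129 against 8.96 to 11.2, and Polm, a polymerase of end joining, at 3.07 in mE6 against 4.24 to 6.36. Redox and metabolic enzymes had 10, at 0.258 to 0.642, with 9 lowest. Among them Umps, which completes pyrimidine synthesis, stood at 18.74 in mE6 against 18.67 to 39.5. Genes of transcription and RNA had 10, at 0.201 to 0.622, and all 10 were lowest.

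Innate immunity and cell death had 5 (Nod1, Tirap, Trim56, Fadd and Fv1), in 5 different clones, at 0.293 to 0.525, all lowest. Nod1, a sensor of bacterial cell wall, stood at 0.649 FPKM in mE6 against 1.24 to 3.22, and Tirap, an adaptor of Toll-like receptors, at 2.40 in E1.2 against 4.05 to 6.32. Receptors and signalling had 7, with 4 lowest (0.0841 to 1.04), and matrix and proteoglycans 5, with 3 lowest. Ust, a sulfotransferase of chondroitin and dermatan chains, stood at 4.38 FPKM in mE6 against 9.41, 10.3 and 12.3, and Megf6 at 1.89 in G4 against 4.78, 18.1 and 29.1. Cell-cycle genes were 4, with 3 lowest: beside Ccnd1, Cdc25b, a phosphatase that starts mitosis, stood at 12.96 in clone 129 against 16.5 to 27.4, and Cdkn2b, an inhibitor of CDK4 and CDK6, at 13.2 against 24.8 to 44.5. Of these 52 genes, 43 were lowest in the single-allele clone, where 102 of all 122 genes (83.6%) were. Their median FPKM ratio was 0.507, against 0.508 over the 122. The 52 thus stood close to the whole set, and differences between groups were not tested.

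The 122 genes were 1.48% of the well-read rows, so lists of this size would hold few or none of them, and the rule itself left out by name Slc1a3 of the neural progenitor list, Gja1 and Slc1a2 of the astrocyte list and Impact of the imprinted list. Set against lists of named gene groups, 3 of 25 well-read imprinted genes were among the 122: Osbpl5, Dhcr7 and Nap1l4, all from the chromosome 7 run in G4. None of 23 well-read neural progenitor genes, 9 astrocyte genes and 3 feeder fibroblast genes was included, and of 65 adhesion and matrix genes 1 was, Gpc2, a glypican. Gpc2 in clone 129 stood at 10.6 FPKM against 8.78, 11.8 and 21.7. Of 80 signalling genes 1 was included (Tgfbr2), and of 84 genes of dominant disease 2 (Tgfbr2 and Ccnd1). The only well-read gene of the endoderm list, Dab2, was included, at 2.84 FPKM in clone 129 against 3.17, 4.73 and 11.1. As a check of the labels, neural progenitor markers summed to 3211 to 5942 FPKM in the NPC clones and to 375 and 424 in the ES lines, and pluripotency markers (3 of 7 in the table) to 2.09 to 4.65 and to 266 and 443.

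The ES lines played no part in the choice. In both of them 90 of the 122 genes (73.8%) had a 129 share between 30% and 70%, compared with 89.8% of the 8252 well-read rows and 93.7% of the 7253 rows with both alleles in all NPC clones. With at least 100 counts in both ES lines, the shares were 79.5% of 112 genes and 92.5% of 7931 rows. A single allele was read in at least 1 ES line for 12 of the 122 genes. Over the 8252 well-read rows it was read for 168 (2.04%) in F1-21.6 and 128 (1.55%) in F1-23. These shares count each line alone, and the difference was not tested. Fv1, a retroviral restriction factor, retained Cast in mB4 and had 4.80% and 14.4% from 129 in F1-21.6 and F1-23. B3galtl, a glucosyltransferase, retained Cast in clone 129 and had 10.7% and 16.2%, and Mios, of the nutrient-sensing GATOR2 complex, had 10.6% and 17.2%. In contrast to these 3, Acsf2, an acyl-CoA synthetase, retained Cast in clone 129 and had 85.2% and 85.8% from 129 in the ES lines. BC064078 was read only from 129 in the ES lines, but on 23 and 8 counts, and only from Cast in clone 129.

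By edgeR on counts with the line as a covariate, 51 of the 122 genes (41.8%) were higher in NPC clones than in the ES lines, 24 (19.7%) were lower and 47 did not pass. Over well-read rows 38.7% were higher and 30.9% lower (33.3% and 29.7% of all rows tested), and the 122 carry the same 500-count minimum. The ES libraries share the library prefix of the XY clones and not that of the XX clones, so for the XX clones cell type and library set cannot be told apart. With the ES lines and XY clones only, 64 of the genes were higher and 25 lower. No share over all rows was computed for that fit, so these counts cannot be read as particular to the genes. Ccnd1 rose 3.44 on the log2 scale (edgeR adjusted p = 0.00013), from 22.5 FPKM in F1-21.6 and 42.6 in F1-23 to between 110.9 and 435.6 in the NPC clones, so even the single-allele clone G4 exceeded both ES lines. Xrcc5 fell by 2.44 (edgeR adjusted p = 3.9e-05), from 78.7 and 84.3 FPKM to between 5.13 and 19.4. Txnrd1 changed by -0.60 without passing (edgeR adjusted p = 0.19). Sun1 fell by 1.60 (edgeR adjusted p = 0.00024), with 47.9 and 37.6 FPKM in the ES lines, and the clones with both alleles stood between 13.96 and 18.2.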

How the data were processed

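RNA-seq libraries of 8 NPC clones and 2 ES lines were used, and further libraries of clones C2 and mC3 were left out. The deposited table gives, per gene, whole informative counts, the 129 share of those counts and FPKM; the submitters' processing notes name mm9, SAMtools, Cufflinks 1.3.0 and TopHat 1.4.0, without roles. The deposited counts were used as they are, 61375911 to 119266777 per library. The 129 share was deposited as a fraction and is printed here as percent. The authors' FPKM values were tested as log2(FPKM + 1) with limma 3.58.1 (rows with mean FPKM of at least 0.5; clone against the other 7; Benjamini-Hochberg within a clone, threshold 0.05); exact permutation of 1 clone against 7 cannot go below p = 0.125. Counts were tested with edgeR 4.0.16 (TMM, quasi-likelihood), with DESeq2 1.42.0 as an alternative. Scripts were tested on simulated data. Retained-allele CPM is the CPM of the informative counts times the allele share. The genes and the lists were chosen with earlier results of these data known. Genes named with values are the 8 lowest that passed, the 2 with most counts per clone, those on a list, those within 1 Mb of another gene of the same clone and those nearest the limits; others are described as examples chosen after their values were seen.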

Additional observations from a re-analysis of the deposited data

Results flagged for a closer look

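For 18 of the 47 genes tested for it, the FPKM of 1 clone stood apart from the other 7 by Dixon's gap test, and in all 18 it was the single-allele clone, on the low side. Chance marks about 1 in 20 such groups, and 5.26% of well-read rows had a clone apart on the low side, but the 47 genes were named in part for their low FPKM, so their count cannot be read against these rates. In clone 129 these were Xrcc5 (5.13 FPKM), Ptp4a3 (2.27), Uhrf2 (10.7), Cstf2t (16.6), Ano3 (1.93), 9330182L06Rik (0.582) and Irgq (3.43). In G4 they were Dhcr7 (22.5), Nap1l4 (40.0), Cttn (28.0), Ppfia1 (6.26), Fadd (2.10) and Ccnd1 (110.9), all from the end of chromosome 7. The others were Txnrd1 (25.03) and Tdrkh (14.4) in E1.2, Ust (4.38) in mE6, Taf1b, a subunit of the RNA polymerase I initiation factor (5.02), in mC3, and Sun1 (7.22) in mB4.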

How the results depend on the processing

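Adjusting over all 8 clones together left 5% of the genes lower by FPKM, against 11.7%. Leaving out 1 clone at a time gave 3.64% to 21.7% for FPKM and 1.75% to 11.2% for counts, and without the genes of clone 129 the shares were 5.45% and 3.57%, from fewer genes. DESeq2 called 51.6% lower by counts, against 7.38%, and the cause was not tested. Limits of 95% and 5% left 76 genes, and choosing over 7 clones gave 83 to 131. The median log2 FPKM difference lay between -0.85 and -0.77 with 1 clone left out, and between -0.94 (pseudocount 0.1) and -0.75 (a higher count minimum) over every setting tried. Among the genes of the naming rule, Prkg1 alone changed sign by FPKM, in 5 settings, from -0.01 to at most 0.27, and passed in none. Haus4, outside that rule, went from -0.14 to 0.06 against the other clones of its line. Over the genes of that rule and all settings, 490 FPKM comparisons kept their side of the threshold, 35 lost it and 15 gained it, and for counts 474, 19 and 24. No paired analysis was possible because the clones carry names and no shared replicate numbers. Alternatives without the chromosome 7 run, without clone 129 genes and with the rule over 7 clones were chosen after seeing the data.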
